A study of Mus musculus with 35 samples.

Results

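The phagocyte NADPH oxidase subunits were followed as 6 genes, Cybb, Cyba, Ncf1, Ncf4, Rac1 and Rac2. They were counted in 35 single cells from cultures prepared as mouse peritoneal macrophages. The genes were picked by symbol, without regard to their values, from 32285 genes listed for the lactate experiment and the technique comparison and 35624 listed for the AZD3965 experiment. All cells came from male C57BL/6 mice aged 6 months and were cultured before use. The lactate experiment held 8 cells given 10 mM lactate for 72 h and 8 control cells. The AZD3965 experiment held 5 cells given 10 mM lactate with 300 nM AZD3965, an inhibitor of the lactate carrier MCT1, and 5 cells given lactate alone, both for 72 h. The technique comparison held 4 lactate-treated cells from which cytoplasm had first been drawn for metabolite analysis (scMeT-seq), 3 lactate-treated cells sequenced whole, and 2 control cells sequenced whole. The study describes the cells of the lactate and AZD3965 experiments as scMeT-seq cells too, although their labels do not state the technique. No label tied a cell to an animal or culture, so each group counted as 1 sample and no test between groups was run. Every interval below covers the counting error of reads that carried no molecular identifiers, and not the variation between cells, animals or cultures.

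The phagocyte oxidase passes electrons from cytosolic NADPH across a membrane to oxygen and so makes superoxide, which macrophages and neutrophils use to kill ingested microbes and as a signal. Its catalytic core is a membrane cytochrome of 2 chains, encoded by Cybb (the electron-carrying chain) and Cyba (its partner, which stabilises it). In a resting cell the organizer encoded by Ncf1 and the phosphoinositide-binding protein encoded by Ncf4 stay in the cytosol, and they join the cytochrome after the cell is stimulated. A Rac GTPase completes the enzyme: Rac2 is made mainly in blood cells, Rac1 in most cell types.

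On the GRCm38 assembly (mm10), Cybb lies on chromosome X at 9435252 to 9487771 on the minus strand, and Cyba on chromosome 8 at 122424776 to 122432930, also on the minus strand. Ncf1 (134220053 to 134229625) and Rac1 (143503634 to 143528036) are both on the minus strand of chromosome 5. Ncf4 (78244801 to 78262580, plus strand) and Rac2 (78559167 to 78572783, minus strand) share chromosome 15. Counts were made without strand, and 2309 exonic bases of Rac1 also belong to Daglb, a lipase gene on the opposite strand. Of the 100-base windows of the Rac1 transcript, 54.4% also occur in Daglb exons, so part of a Rac1 count cannot be told apart from Daglb reads. For Ncf1 the share was 3.88%, with 408 bases overlapping Gtf2ird2 on the opposite strand. The other 4 subunit genes shared no exonic base with another gene.

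Rac1 and Rac2 encode close relatives, and their coding sequences are shown because the comparison of both genes rests on reads being told apart. Both coding sequences have 579 bases, of which 77.0% are identical, and their longest identical run is 29 bases, against reads of 150 bases. The last 90 bases, 490 to 579 of each coding sequence, are given below 5′ to 3′ from the annotated transcripts on GRCm38, with capitals at the 36 bases that differ between both genes.
Rac1, last 90 bases: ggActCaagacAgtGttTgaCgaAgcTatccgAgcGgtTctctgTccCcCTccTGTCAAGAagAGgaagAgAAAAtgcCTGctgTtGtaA
Rac2, last 90 bases: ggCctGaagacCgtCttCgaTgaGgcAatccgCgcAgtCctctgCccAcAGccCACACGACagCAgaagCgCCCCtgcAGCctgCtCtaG
This stretch encodes the tail of the protein, which is known to help direct each GTPase to membranes.

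Total counts per cell were 269393 to 459859 in the lactate experiment, 58444 to 175450 in the AZD3965 experiment and 494520 to 851417 in the technique comparison. Each cell had counts of 14 to 18 of the 18 macrophage markers. In 4 cells, however, fibroblast or mesothelial markers summed to at least 10% of the macrophage markers, and these cells are marked in the plots. In CPM (counts scaled to the same library total), control cell 32 summed to 43947 for fibroblast markers and 2538 for macrophage markers, with Adgre1, Csf1r, Cd68 and Mertk at 0. The larger of the fibroblast and mesothelial sums was 53.0% of the macrophage sum in lactate+AZD cell W14, 24.9% in control cell 30 and 19.0% in lactate cell 29. Neutrophils are the other main carrier of this enzyme, and of 12 neutrophil markers Retnlg, Ly6g, Ltf, Ngp, Elane and Mpo were at 0 in all 35 cells. The others were Mmp8 (counted in 34 cells, up to 1428 CPM), Csf3r (30 cells, up to 338 CPM), Mmp9 (29 cells, up to 5810 CPM), Camp (7 cells), Prtn3 (6 cells) and Cxcr2 (1 cell). Their part in the results was not tested, and subunit ratios are given with and without the 4 marked cells where they belong to it.

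The oxidase genes were counted in nearly every cell. Cybb, Cyba and Rac1 had counts in all 35 cells, Ncf4 and Rac2 in 34 and Ncf1 in 33, and 32 cells had counts of all 6 genes. The exceptions were control cell 27 and control cell 30, which had no Ncf1 count, and control cell 32. That last cell had no Ncf4 count and no Rac2 count, 1 count of Ncf1 and 5 of Cybb, although 78 of its counts were Rac1. Its 6 subunits summed to 354 CPM, and the other 34 cells ranged upward from 2121 CPM in W14. A count of 0 in one cell allows a level of up to 3 counts of its total.

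**Figure D1:**
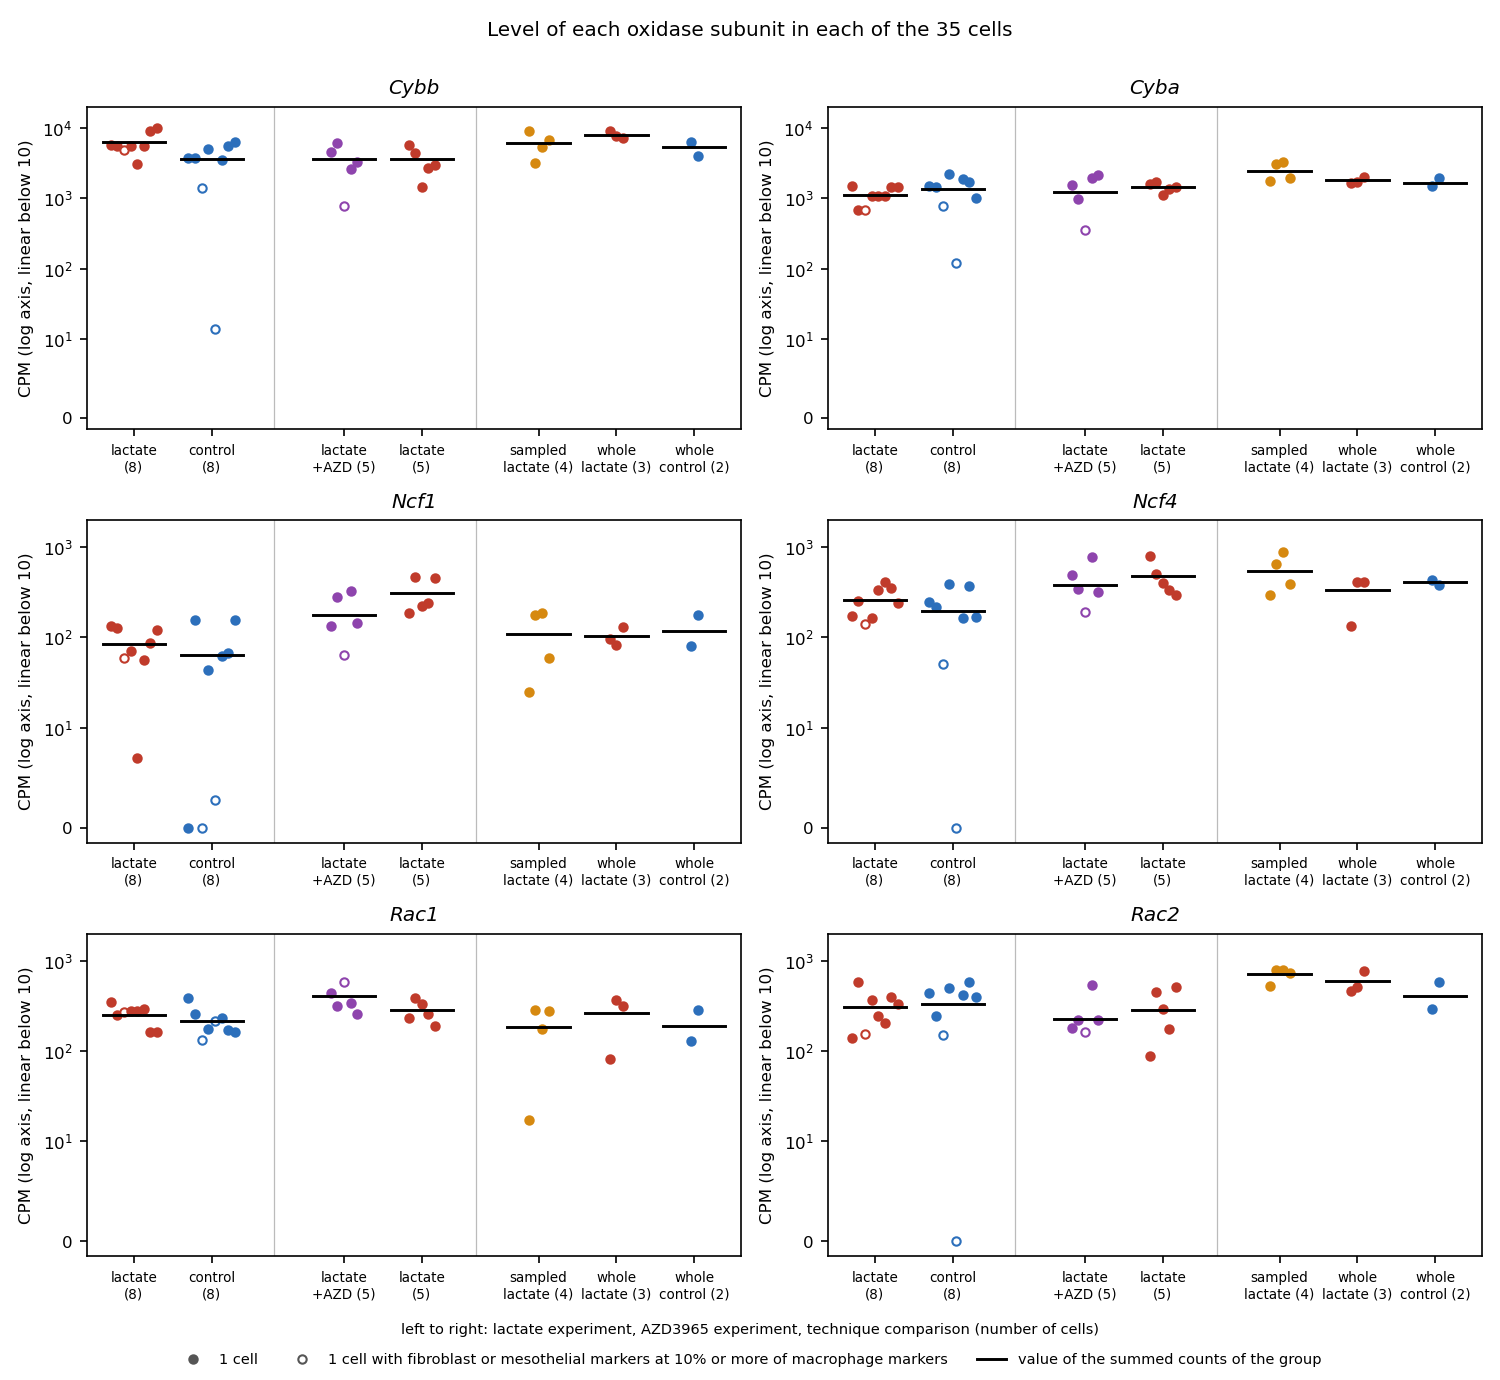
CPM of each subunit (y axis, logarithmic above 10 CPM and linear below) in each cell (points) of the 7 groups, with the level from the summed counts of a group as a bar and the 4 cells with fibroblast or mesothelial markers as open points. Control cell 32 lies far below the other control cells for Cybb and Cyba and at 0 for Ncf4 and Rac2, but within their range for Rac1.

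Per length of exon, the membrane chains stood far above the cytosolic partners. Levels here are counts per kilobase of exon, scaled to the same total over all genes in each group. Cyba reached 3061 in lactate cells and 3643 in control cells of the lactate experiment. Cybb reached 3053 in lactate cells and 1738 in control cells. With exon unions as length, Cyba and Cybb thus did not differ beyond counting error in the lactate cells, and Cyba led in each of the other 6 groups. Ncf4 followed at 371 in lactate cells and 273 in control cells, and Rac2 at 277 in lactate cells and 301 in control cells. Rac1 was at 160 in lactate cells and 133 in control cells. Ncf1 was the lowest of the 6, at 65.2 in lactate cells and 49.2 in control cells. The order Cyba, Cybb and then the 4 cytosolic genes held in all 7 groups, with exon unions or with the longest transcript as length. With the longest transcript, Cyba (3366) was above Cybb (2938) in the lactate cells by more than counting error. Below them the order varied: Rac2 was above Ncf4 per length in control cells and in whole lactate-treated cells, but below it when the longest transcript was used. In the AZD3965 experiment Rac1 (236) was above Rac2 (194) in lactate+AZD cells and Ncf1 (210) above Rac1 (159) in lactate cells.

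**Figure D2:**
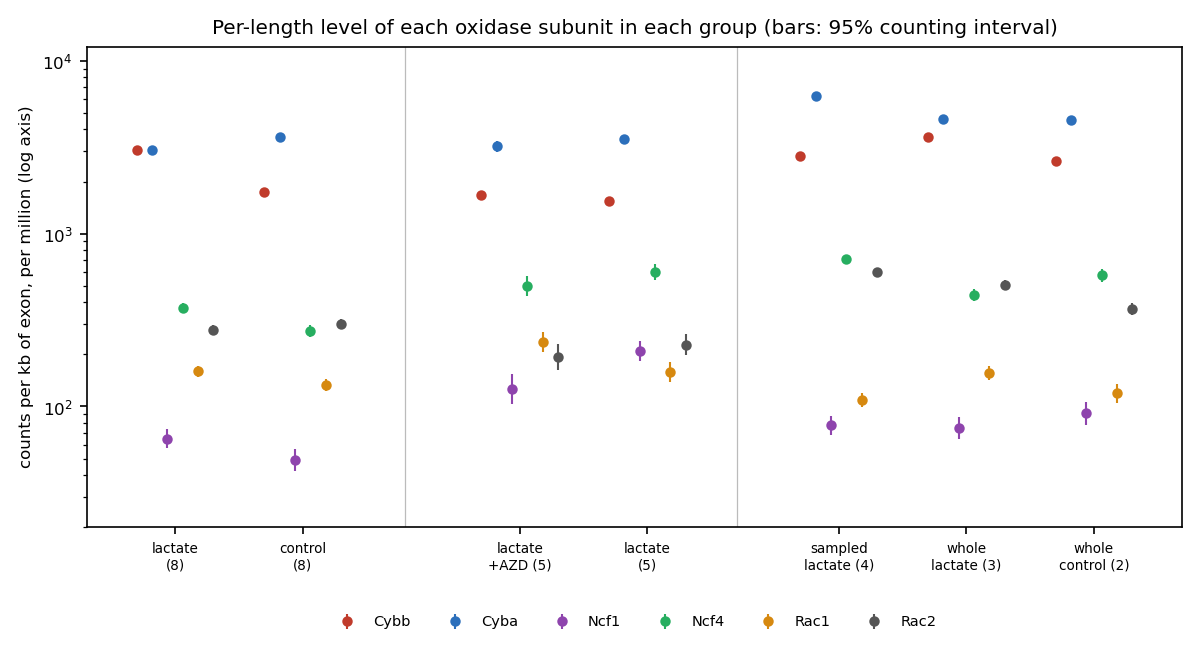
Level of each subunit in counts per kilobase of exon, scaled to the same total over all genes (y axis, logarithmic). Values are for the 7 groups, from summed counts, with 95% counting intervals as bars. Cyba and Cybb lie above the 4 cytosolic genes in every group.

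The first comparison asked how the subunits stood after lactate. The background for this comparison was broad: 37.2% of 11506 genes with at least 10 counts differed at least 2-fold either way between lactate and control cells, and 21.9% of the 7123 genes with at least 100 counts. None of the 6 subunits did. The median log2 ratio over the 6 was 0.32, beside -0.09 over all genes measured. Without the marked cells that median was 0.09, beside 0.01 over all genes. Counting intervals lay above 0 for 4 subunits and below 0 for 2, but no share over all genes stands beside that count. It is thus no result about the subunits, and without the marked cells the intervals of Ncf1, Ncf4 and Rac1 included 0. The 12 neutrophil markers summed to 1208 to 6907 CPM in lactate cells (median 2734) and to 299 to 4212 CPM in control cells (median 1292), and their part in the subunit ratios was not tested.

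From summed counts over all cells, Cybb was the subunit with the highest ratio to control, and Ncf1 was with mean log2(CPM + 1). It ranged over 3048 to 10021 CPM in lactate cells (median 5543), and over 13.8 to 6271 CPM in control cells (median 3752). Of the 8 lactate cells, 7 were above the control median and 2 above every control cell, and the ranges overlapped. The summed levels were 6232 CPM in lactate cells and 3600 CPM in control cells, a log2 ratio of 0.79 (95% interval 0.76 to 0.83). Leaving out each cell in turn gave 0.60 (without control cell 32) to 0.93. Without the 3 marked cells of this experiment the log2 ratio was 0.49 (0.46 to 0.53), with 6449 CPM in 7 lactate cells and 4587 CPM in 6 control cells.

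Cyba, which pairs with Cybb in the membrane, had the opposite sign. Its values were 681 to 1507 CPM in lactate cells (median 1085), against 122 to 2252 CPM in control cells (median 1479), and 1 of 8 lactate cells was above the control median. The log2 ratio was -0.27 (-0.34 to -0.21), and -0.48 (-0.55 to -0.41) without the marked cells. Leaving out each cell in turn gave -0.44 (without control cell 32) to -0.13 (without control cell 31). Mean log2(CPM + 1) gave 0.03 over all cells and -0.46 without the marked cells. With that summary the sign thus depended on whether the marked cells were included.

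Ncf1 and Ncf4 differed less once the marked cells were left out. Ncf1 ranged over 6.92 to 134 CPM in lactate cells (median 78.6) and over 0 to 158 CPM in control cells (median 52.9), with a log2 ratio of 0.39 (0.11 to 0.66), or 0.83 without control cell 28, that was 0.03 (-0.25 to 0.31) without the marked cells. Ncf4 ranged over 142 to 409 CPM in lactate cells (median 249) and over 0 to 390 CPM in control cells (median 192), and its log2 ratio of 0.42 (0.27 to 0.58) became 0.14 (-0.02 to 0.30) without the marked cells. For both genes the interval without the marked cells included 0.

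The GTPases differed by less than Cybb. Rac1 had 161 to 345 CPM in lactate cells (median 270) and 131 to 382 CPM in control cells (median 196), and a log2 ratio of 0.25 (0.09 to 0.40), or 0.14 (-0.03 to 0.31) without the marked cells. Daglb, which shares exonic bases with Rac1, had counts in 6 of 8 lactate cells and 3 of 8 control cells and a log2 ratio of -0.13 (-0.50 to 0.24). Rac2 had 137 to 578 CPM in lactate cells (median 286) and 0 to 585 CPM in control cells (median 406). Its log2 ratio was -0.14 (-0.27 to -0.01), 0.01 without control cell 34, -0.36 without lactate cell 28, and -0.37 (-0.51 to -0.23) without the marked cells. With mean log2(CPM + 1) it was 0.65 over all cells and -0.50 without the marked cells.

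**Figure D3:**
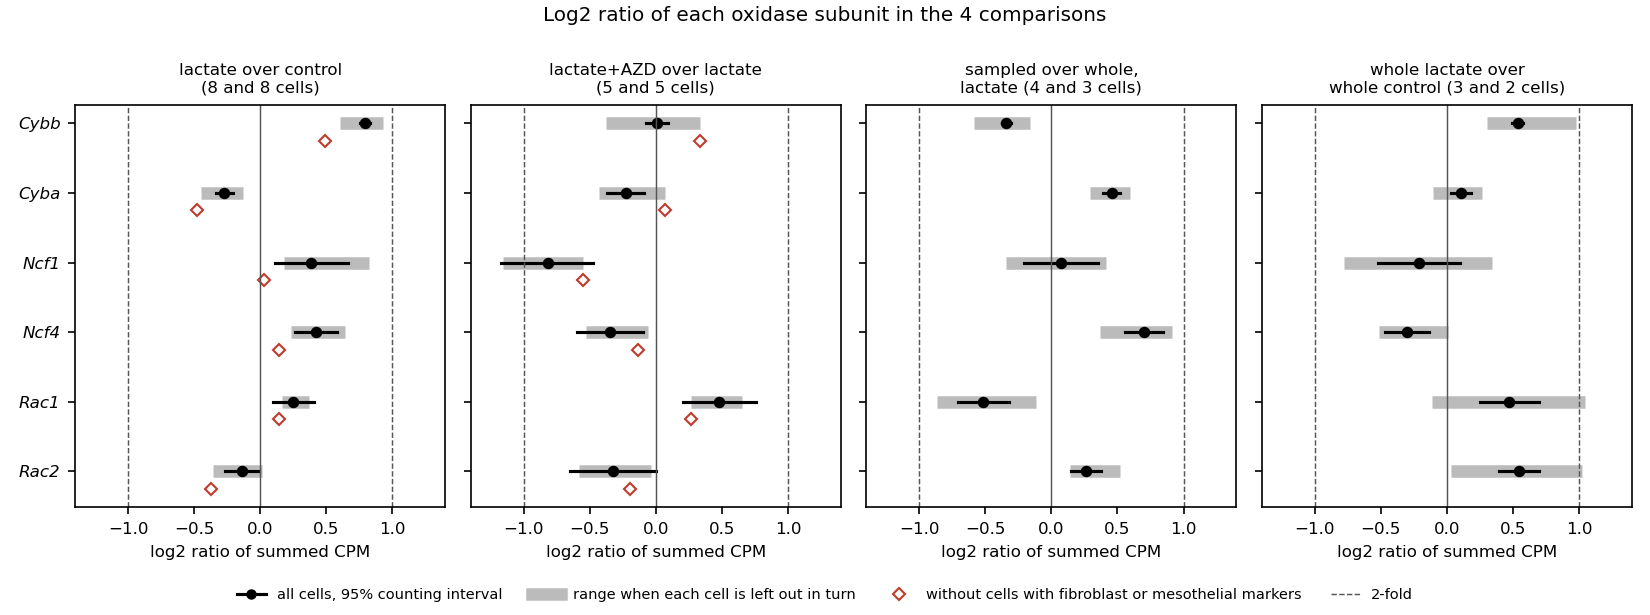
Log2 ratio of the summed CPM (x axis) of each subunit in the 4 comparisons, with 95% counting intervals (black lines), the range when each cell is left out in turn (grey bars) and the value without the marked cells (red diamonds). No point lies past a dashed 2-fold line, and the grey bars cross one for Ncf1 in lactate+AZD over lactate and for Rac1 and Rac2 in whole lactate over whole control cells.

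Within a cell, the balance of the membrane chains does not depend on how that cell is scaled. The counts of Cybb per count of Cyba were 2.79 to 8.14 in lactate cells (median 5.70) and 0.114 to 6.28 in control cells (median 2.35). From summed counts the values were 5.58 (95% interval 5.37 to 5.78) in lactate cells and 2.67 (2.57 to 2.77) in control cells, a log2 difference of 1.06. Leaving out each of the 16 cells in turn gave a log2 difference of 0.95 to 1.25. Without the marked cells the summed values were 5.44 in 7 lactate cells and 2.77 in 6 control cells, a log2 difference of 0.97. The ranges overlapped through control cell 35 at 6.28 and control cell 34 at 3.26, beside lactate cells 27 at 3.82 and 31 at 2.79. In the technique comparison the same ratio was 3.60, 4.43 and 5.51 in the whole lactate-treated cells, against 2.07 and 4.25 in the whole control cells. From summed counts it was 2.52 in the sampled lactate-treated cells. In the lactate cells of the AZD3965 experiment it was 2.47, with single cells at 1.27 to 3.59. A high ratio was thus not shared by all lactate-treated groups, and the experiments were not tested against each other.

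**Figure D4:**
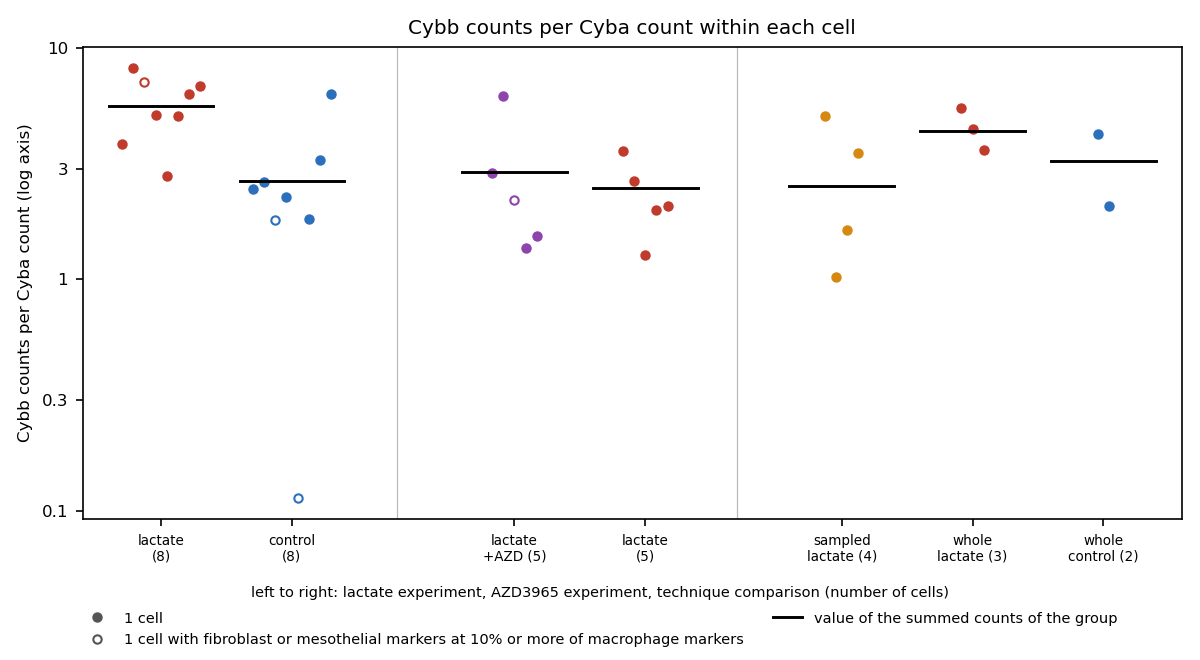
Cybb counts per Cyba count (y axis, logarithmic) in each cell (points) of the 7 groups, with the ratio of the summed counts as a bar and the 4 marked cells as open points. Of the 8 lactate cells of the lactate experiment 7 lie above 3, and of the 8 control cells 2 do.

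The Rac2 share of the Rac1 and Rac2 counts was 28.5% to 71.1% in lactate cells (median 51.8%) and 0% to 77.4% in control cells (median 58.9%). From summed counts it was 54.5% (Clopper-Pearson 95% interval 52.1 to 56.9) in lactate cells and 61.0% (58.6 to 63.4) in control cells. Without the marked cells the shares were 56.6% in lactate cells and 65.0% in control cells. Both Racs were thus counted in macrophages of both groups, and the spread between cells of a group was wider than the difference between groups.

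The second comparison concerned MCT1 block under lactate. At least 2-fold differences either way were seen in 40.5% of 8764 genes between lactate+AZD and lactate cells, and in 13.1% of the 2124 genes with at least 100 counts, but in none of the 6 subunits. Every lactate+AZD cell lay above every lactate cell in 0.319% of genes and below in 0.0571%, and for no subunit. The median log2 ratio of the 6 was -0.28, beside 0.17 over all genes. Without the marked cell W14 that median was -0.03, beside 0.04 over all genes.

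Ncf1, the organizer, stood lowest. Its values were 325, 280, 144, 135 and 63.6 CPM in the lactate+AZD cells, against 473, 453, 241, 225 and 188 CPM in the lactate cells. Of the lactate+AZD cells 3 were below every lactate cell, and the other 2 were inside their range. The log2 ratio was -0.82 (-1.17 to -0.47), it was -0.55 (-0.91 to -0.19) without cell W14, and it was -1.15 without cell W10.

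Cybb was level in sum, at 6135, 4539, 3297, 2635 and 778 CPM in the lactate+AZD cells, against 5768, 4463, 3005, 2739 and 1439 CPM in the lactate cells. The log2 ratio was 0.01 (-0.07 to 0.10), but leaving out W14 gave 0.34 and leaving out W10 gave -0.38, so its sign rested on single cells. W14 held the lowest Cybb, Cyba, Ncf1, Ncf4 and Rac2 and the highest Rac1 of its group, together with its fibroblast markers.

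Cyba was at 2147, 1933, 1572, 995 and 354 CPM in the lactate+AZD cells, against 1687, 1608, 1447, 1382 and 1132 CPM in the lactate cells. Its lactate+AZD cells lay on both sides of the lactate cells, with a log2 ratio of -0.23 (-0.37 to -0.09), or 0.07 (-0.07 to 0.21) without W14. Ncf4 was at 787, 489, 340, 321 and 191 CPM in the lactate+AZD cells, against 792, 507, 397, 339 and 298 CPM in the lactate cells. Its log2 ratio was -0.35 (-0.60 to -0.10), -0.13 (-0.39 to 0.13) without W14 and -0.06 without lactate cell T11.

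The GTPases had opposite signs in sum. Rac1 was at 573, 439, 342, 314 and 254 CPM in the lactate+AZD cells, against 388, 330, 253, 232 and 188 CPM in the lactate cells, with a log2 ratio of 0.48 (0.20 to 0.76), or 0.27 (-0.04 to 0.58) without W14. Rac2 was at 530, 221, 220, 177 and 163 CPM in the lactate+AZD cells, against 508, 445, 292, 173 and 88.0 CPM in the lactate cells, with a log2 ratio of -0.32 (-0.65 to -0.00). That ratio was -0.20 (-0.55 to 0.14) without W14, and -0.58 (without T11) to -0.04 (without T13) over the cells left out in turn. All 5 lactate+AZD cells were above the lactate median for Rac1, and 1 of 5 was for Rac2. The Rac2 share of the Rac counts was 36.2% (31.2 to 41.3) in lactate+AZD cells and 49.8% (44.8 to 54.7) in lactate cells. Without W14 it was 41.8% (35.7 to 48.0) in lactate+AZD cells, an interval that overlapped that of the lactate cells.

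The cell labels of the AZD3965 experiment start with the letters T, W and F, whose meaning the labels do not give, and each letter holds cells of both groups. The 3 F cells had the lowest totals, 58444 to 90523 counts. Within letters, Ncf1 had log2 ratios of -1.33 (T), -0.41 (W) and -1.07 (F), Rac1 of 0.48, 0.61 and 0.62, and Rac2 of -0.64, -0.24 and -0.57, in the same order. With the marked cell W14 included, these 3 genes kept 1 sign in all letters. The intervals of Rac2 included 0 in each letter, that of Ncf1 did in W and that of Rac1 did in F. Cybb (-0.16, 0.72 and 0.02), Cyba (-0.07, -0.89 and 0.51) and Ncf4 (-0.40, -0.45 and 0.76) did not keep 1 sign. Each letter holds 1 or 2 cells of a group, and the W values include the marked cell W14. The other lactate+AZD cell of that letter, W10, had 280 CPM of Ncf1, above W5 (225 CPM) and W20 (241 CPM). The sign of Ncf1 in W thus rested on W14. For Rac1 and Rac2, W10 lay between W5 and W20.

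**Figure D5:**
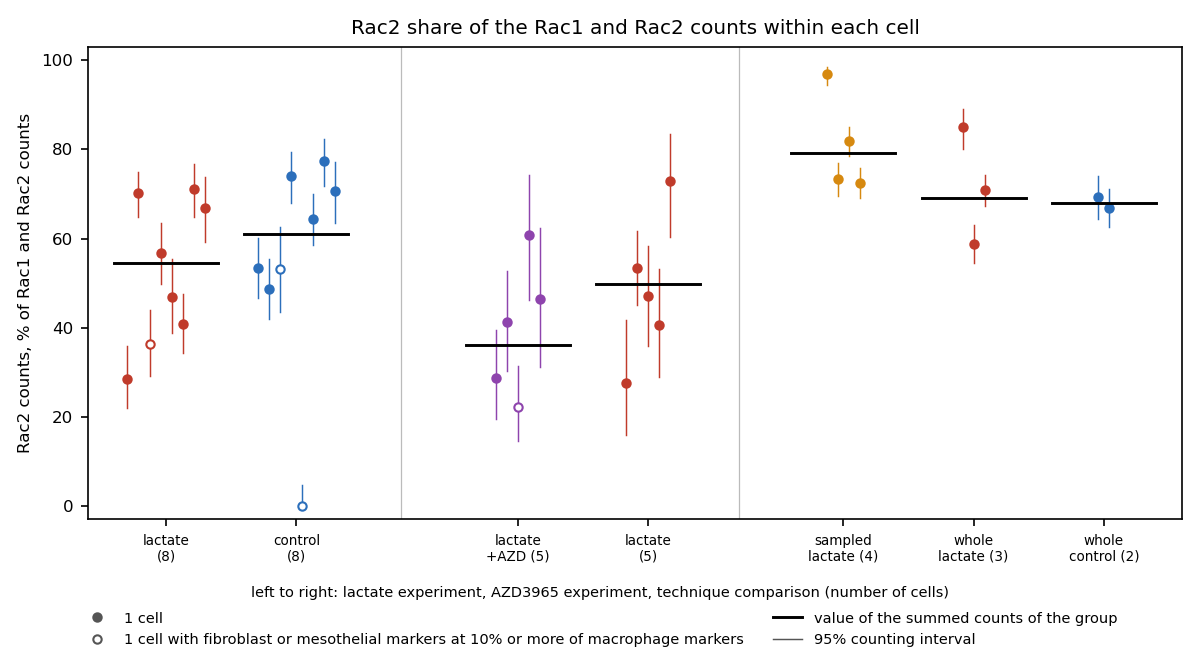
Rac2 counts as a percentage of Rac1 and Rac2 counts (y axis) in each cell (points, with 95% counting intervals as thin lines) of the 7 groups, with the share of the summed counts as a bar and the 4 marked cells as open points. Control cell 32 is at 0%, and the 4 sampled cells lie between 72.6% and 96.8%.

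The third comparison set cells sampled for metabolites against whole cells under the same lactate treatment. None of the 6 subunits differed 2-fold, whereas 42.3% of 9723 genes did, and 25.1% of the 5278 genes with at least 100 counts. Every sampled cell lay above every whole cell in 1.7% of genes and below in 3.08%, and for no subunit. The median log2 ratio of the 6 was 0.16, beside 0.02 over all genes. None of these cells was marked by fibroblast markers. The neutrophil markers summed to 1759 to 4886 CPM in sampled cells (median 4107) and to 2014 to 2924 CPM in whole cells (median 2310), and their part in the ratios was not tested.

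The membrane chains again had opposite signs. Cybb was at 8936, 6773, 5282 and 3165 CPM in the sampled cells, against 9021, 7570 and 7220 CPM in the whole cells, and 3 of the sampled cells were below every whole cell. Cyba was at 3254, 3102, 1922 and 1765 CPM in the sampled cells, against 2006, 1707 and 1636 CPM in the whole cells, and 2 of the sampled cells were above every whole cell. The log2 ratios were -0.34 (-0.37 to -0.31) for Cybb and 0.46 (0.39 to 0.52) for Cyba. Over the cells left out in turn Cybb ran from -0.59 (without sampled cell 13) to -0.16 (without sampled cell 14), and Cyba from 0.29 (without sampled cell 16) to 0.59 (without sampled cell 13). The count of Cybb per count of Cyba was 1.02, 1.62, 3.52 and 5.06 in the sampled cells, against 3.60, 4.43 and 5.51 in the whole cells.

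Ncf4, which binds phosphoinositides of the phagosome, had a log2 ratio of 0.70 (0.56 to 0.84), or 0.37 without sampled cell 16 and 0.39 without whole cell 5. It was at 880, 654, 392 and 292 CPM in the sampled cells, against 415, 414 and 133 CPM in the whole cells, so the groups overlapped. Ncf1 was at 189, 179, 58.9 and 25.1 CPM in the sampled cells and at 129, 95.04 and 81.6 CPM in the whole cells. Its log2 ratio of 0.07 (-0.21 to 0.35) left out neither sign, and the sampled cells fell on both sides of the whole cells.

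Rac1 was at 287, 274, 174 and 17.3 CPM in the sampled cells, against 362, 311 and 80.9 CPM in the whole cells, with a log2 ratio of -0.51 (-0.70 to -0.32), or -0.11 without sampled cell 13. That cell had 11 Rac1 counts beside 337 Rac2 counts. Rac2 was at 791, 789, 725 and 529 CPM in the sampled cells, against 758, 516 and 459 CPM in the whole cells, with a log2 ratio of 0.26 (0.15 to 0.37). The Rac2 share was 79.2% (77.4 to 80.9) in the sampled cells and 69.0% (66.6 to 71.4) in the whole cells, and its ranges of 72.6% to 96.8% in sampled cells and 58.7% to 85.0% in whole cells overlapped.

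The fourth comparison repeated lactate against control in whole cells. Here 42.8% of 9732 genes differed at least 2-fold either way, and 25.3% of the 4715 genes with at least 100 counts, and again none of the 6 subunits. Cybb was at 9021, 7570 and 7220 CPM in the lactate-treated cells, against 6360 and 3999 CPM in the control cells. It was the one subunit whose 3 lactate-treated cells were all above both control cells, a pattern shown by 5.99% of the genes measured. Its log2 ratio was 0.53 (0.49 to 0.58), and 0.30 to 0.97 when each cell was left out in turn.

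The other subunits overlapped between whole lactate-treated and whole control cells. Cyba was at 2006, 1707 and 1636 CPM against 1933 and 1495 CPM in control cells, and its log2 ratio of 0.11 (0.03 to 0.18) turned to -0.11 without control cell 4. Rac1 was at 362, 311 and 80.9 CPM against 285 and 128 CPM in control cells, and its log2 ratio of 0.47 (0.25 to 0.69) spanned -0.11 to 1.04 when either control cell was left out. Rac2 was at 758, 516 and 459 CPM against 576 and 290 CPM in control cells, and its log2 ratio of 0.54 (0.39 to 0.69) spanned 0.03 to 1.02. Ncf1 was at 129, 95.04 and 81.6 CPM against 177 and 81.0 CPM in control cells (log2 ratio -0.21, interval -0.52 to 0.10). Ncf4 was at 415, 414 and 133 CPM against 433 and 380 CPM in control cells (log2 ratio -0.30, interval -0.47 to -0.13). Ncf1 changed sign between leaving out control cell 4 (-0.78) and control cell 8 (0.34), and Ncf4 came to 0.01 without lactate-treated cell 5.

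The genes around the oxidase were described by lists, set beside the share of all genes past 2-fold in the same comparison. In lactate over control cells 15.1% of all genes were at least 2-fold higher and 22.0% at least 2-fold lower. Of 19 transcription factors known to act on oxidase genes, 7 were at least 2-fold higher and 1 lower, and their median log2 ratio was 0.72. Irf8, a factor of the myeloid lineage, had a log2 ratio of 1.05 (0.88 to 1.22), and Cebpd, a factor of inflammatory responses, one of -1.07 (-1.30 to -0.84). Without the marked cells 6 of 17 were higher and 0 lower, beside 19.9% higher and 18.3% lower over all genes. Irf8 (0.80) and Cebpd (-0.47) were then no longer past 2-fold.

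Of 19 kinases and lipid enzymes upstream of oxidase assembly, 5 were higher and 2 lower in lactate over control cells. Syk, the tyrosine kinase that couples phagocytic receptors to downstream signals, had 337 CPM in lactate cells and 139 CPM in control cells, a log2 ratio of 1.27 (1.11 to 1.44) that was 0.89 without the marked cells. Counts of Syk were seen in 8 of 8 lactate and 7 of 8 control cells. Mapk14, the stress kinase p38 alpha, had a log2 ratio of 1.68 (1.39 to 1.97). Rap1b, a close relative of the small GTPase Rap1a that copurifies with the cytochrome, was at 1.11 (0.93 to 1.29), the one gene past 2-fold of 12 in the list of oxidase relatives and assembly partners. Of 17 regulators of the Rac cycle 2 were higher and 1 lower, and of 7 enzymes that supply NADPH none was past 2-fold. In that last list the pentose phosphate enzyme encoded by Pgd was at 0.67 (0.57 to 0.76).

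In lactate+AZD over lactate cells 24.9% of all genes were at least 2-fold higher and 15.6% at least 2-fold lower. Of 17 kinases and lipid enzymes 7 were lower and 1 higher, led by Plcg2, a phospholipase of immune receptors, at 13.8 CPM in lactate+AZD cells and 117 CPM in lactate cells (log2 ratio -3.08, interval -4.34 to -2.04). Pla2g4a, the cytosolic phospholipase that frees arachidonic acid, was at -1.75 (-2.79 to -0.82). Without W14, 21.6% of all genes were lower and 20.5% higher, and the same list had 7 lower and 0 higher of 17. The transcription factor list had 3 of 16 higher and 5 lower, the regulators of Rac 2 and 1 of 14, the oxidase relatives and partners 0 and 1 of 11, and the NADPH supply list none of 8, or 3 lower without W14.

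In sampled over whole cells 21.7% of all genes were at least 2-fold higher and 20.6% lower, and in whole lactate over whole control cells 15.2% were higher and 27.6% lower. In sampled over whole cells the lists ran from 1 of 11 higher and none lower (relatives and partners) to 3 of 19 higher and 2 lower (kinases and lipid enzymes). In whole lactate over whole control cells 7 of 15 regulators of Rac were lower and 1 higher. Tiam1, an exchange factor for Rac, was the furthest, at 4.59 CPM in whole lactate-treated cells and 80.7 CPM in whole control cells. Hvcn1, the proton channel that balances the charge moved by the oxidase, was at 212 CPM in whole lactate-treated cells and 57.4 CPM in whole control cells, a log2 ratio of 1.88 (1.53 to 2.25). No list median is a test of a list, since each group is 1 sample.

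Across the 16 cells of the lactate experiment the 6 subunits did not vary as a block. Among their 15 pairs the Spearman correlation of log2(CPM + 1) ran from -0.20 (Cybb with Rac1) to 0.71 (Cybb with Ncf1), with a median of 0.16. Cybb and Cyba, whose products pair in the membrane, had 0.22. Without the 3 marked cells the range over the 13 cells was -0.54 to 0.59, the median was -0.08, and Cybb with Cyba had -0.20. The points share 2 treatments and an unequal content of macrophage RNA, and they are given as a description.

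The genes whose pattern over the 16 cells was most like that of a subunit were sought among 3458 genes. For Cybb they were Shisa5 (0.88), Tlr2 (0.87) and Mob1a (0.83), and for Cyba Ctss (0.86), Degs1 (0.85) and Cd300c2 (0.82). For Ncf1 they included Clec5a (0.85) and Prkcd (0.82), and for Ncf4 Sh3glb1 (0.80), Tspan17 (0.71) and Tapbp (0.69). For Rac1 they were Atp2a2 (0.80), Card19 (0.78) and Cln3 (0.77), and for Rac2 Tmem50a (0.89), Laptm5 (0.86) and Trf (0.83). In the 10 cells of the AZD3965 experiment the pairs named here ran from -0.73 (Rac2 with Trf) to 0.71 (Cyba with Cd300c2).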

How the data were processed

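Single-cell libraries were made by a modified Smart-seq2 protocol with oligo(dT) priming and 20 cycles of amplification, without molecular identifiers, and read as pairs of 150 bases. The deposited values are whole-number read counts per gene, which the authors made with fastp 0.20.0, HISAT2 2.1.0 (mm10) and StringTie. In the AZD3965 table the count 2 occurred 6215 times and the count 1 1914 times, which neither other table showed.

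The 3 tables were analysed separately. Group sums of the counts over cells were scaled to CPM and compared as log2 ratios with exact conditional binomial 95% intervals, over genes with at least 10 counts in both groups together and with a sum of 0 set to 3 counts over the group. A log2 ratio of at least 1 or at most -1 counted as past 2-fold. The intervals were tried only on reads drawn at random from pooled proportions, the model they assume. Those draws held no amplification and no spread between cells, so they cannot show how the intervals cover these data. No test was run, since cells of a group have no named animal or culture and group sums are single samples. All 201 pairs of cells within a table differed in their counts. Lengths and positions came from a GRCm38 annotation. Named genes were the 6 subunits, up to 2 genes in each direction of a list that reached 50 CPM in the group where they were higher and had counts in 50% of that group's cells, and the 3 genes most like each subunit. Of the genes so picked, those not printed are left out for brevity, and 1 further subunit gene, 1 list and some genes picked by this rule are not reported here. The subunits, lists, markers and tests were chosen with earlier results of these data known. Alternatives were other scalings and summaries, other count filters, leaving out cells, thinning, and halving the counts of the AZD3965 table. The table of the lactate experiment holds 8 control cells, more than the study plotted, and which cell was left out there is not given in the sources used here. Python 3.11.15, numpy 2.4.6, pandas 2.3.3, scipy 1.17.1, matplotlib 3.10.9 and R 4.3.3 with edgeR 4.0.16 (TMM) and DESeq2 1.42.0 (size factors) were used.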

Additional observations from a re-analysis of the deposited data

Results flagged for a closer look

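Of 40 sets of values over the cells of a group (6 subunits, the Cybb to Cyba ratio and the Rac2 share in the groups of 4 to 8 cells), 2 held a cell whose gap to the nearest other cell was large for the range of its group (Dixon's criterion), and chance gives about 1 in 20. Rac2 in lactate+AZD cell F8 was at 530 CPM, and the other 4 cells of that group lay between 163 and 221 CPM. The lactate cell whose label starts with the same letter, F18, was at 508 CPM. The Rac2 share of control cell 32 was 0%, and the other 7 control cells lay between 48.7% and 77.4%; that cell carried 43947 CPM of fibroblast markers, and their part in its share was not tested.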

How the results depend on the processing

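None of the 24 subunit ratios reversed a 2-fold call, since none was past 2-fold. Over the alternatives, 32 of 444 subunit values changed sign and 153 of 444 left the counting interval. The number of subunits past 2-fold was 0 in each comparison. With mean log2(CPM + 1) it was 3 in lactate over control (Cybb 1.60, Ncf1 1.78, Ncf4 1.26), where 2214 of 11506 genes were at least 2-fold higher. With the same summary without the marked cells, an alternative chosen after seeing the data, it was 0. In lactate+AZD over lactate it was 1 with DESeq2 size factors (Ncf1 -1.02). The share of all genes with those factors is not given, so that count is no result about the subunits. With the main scaling 40.5% of all genes were past 2-fold. Over cells left out in turn the number of subunits was 0 to 1, with 1 without W10, where 2149 of 8496 genes were higher and 1315 lower. In whole lactate over whole control it was 0 to 2 over cells left out, with 2 (Rac1 and Rac2) without control cell 8. Without that cell 1718 of 9356 genes were higher and 2518 lower.

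The numbers of genes at least 2-fold higher and lower were 1741 and 2536 in lactate over control, 2181 and 1370 in lactate+AZD over lactate, 2114 and 2002 in sampled over whole, and 1478 and 2686 in whole lactate over whole control. With at least 100 counts they were 666 and 897, 188 and 90, 719 and 608, and 400 and 792. With no filter the last pairs were 3262 and 3154 for sampled over whole and 2483 and 4169 for whole lactate over whole control. Lower genes numbered 1611 with medians of per-cell CPM, 1603 with mean log2(CPM + 1), 1535 with that summary without the marked cells and 1237 with cells matched by number, in lactate over control. In lactate+AZD over lactate they numbered 2109 with mean log2(CPM + 1) and 2438 with that summary without W14. With all 5 whole cells as the reference 1391 genes were higher in sampled cells. The causes of these shifts were not tested, apart from the filters, which set how many genes enter.

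TMM and DESeq2 scaling put the median of all genes at 0.01 and 0.01 in lactate over control and at 0.01 and -0.03 in lactate+AZD over lactate, against -0.09 and 0.17 without them, and at -0.08 and 0.03 in whole lactate over whole control, against -0.20. No paired analysis was possible because no test was run and the cell numbers that groups share tie no cells together; values within the label letters of the AZD3965 experiment, chosen after seeing the data, stand beside its results. Ncf1 rests on 102 to 263 counts per group.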

Other observations

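The 6 subunits together took 5000 to 12340 CPM in lactate cells (median 7480) and 354 to 8542 CPM in control cells (median 6269) of the lactate experiment. Without the marked cells the sums were 5000 to 12340 CPM in lactate cells (median 7489) and 6097 to 8542 CPM in control cells (median 7229). Cybb supplied 75.5% of the subunit counts in lactate cells and 62.5% in control cells, or 75.2% and 63.4% without the marked cells. In the technique comparison the sum was 10652 to 11425 CPM in whole lactate-treated cells and 7349 and 8788 CPM in whole control cells, of which Cybb supplied 71.8% in lactate-treated and 66.0% in control cells. In the sampled cells Cybb supplied 60.8%.

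Among genes around the oxidase, Mapk14 and Arhgap17 had opposite signs in the lactate experiment and in whole lactate over whole control cells, which share no cell; they were chosen after their values were seen. Mapk14 had a log2 ratio of 1.68 in the lactate experiment and of -1.73 in whole cells. Arhgap17, a GTPase-activating protein from the list of Rac regulators, had 1.64 in the lactate experiment and -2.05 in whole cells. In sampled over whole cells under lactate, which share the whole lactate-treated cells, Mapk14 was at 1.34 and Arhgap17 at 1.91. The difference between the experiments was not tested.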
